A study of Mus musculus with 37 samples.

Results

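The otopetrins are the proton channels encoded by Otop1, Otop2 and Otop3, and these 3 genes of the 48795 in the count table are described here across hippocampi with and without Kdm1a. They were chosen because their read counts differed between the genotypes in this same data set, so their levels are given as a description without a test. Kdm1a (LSD1) is a demethylase of mono- and dimethylated lysine 4 of histone H3. RNA was sequenced from the hippocampus of 3 male Kdm1a-ifKO mice and 3 male control littermates, with 1 library per mouse. The Kdm1a-ifKO mice carried floxed Kdm1a alleles and the inducible recombinase Camk2a-creERT2, the controls lacked the recombinase, and all were treated with tamoxifen as young adults on a C57BL/6J background. The Camk2a promoter restricts the deletion to principal neurons of the forebrain, and the RNA came from the whole tissue with all of its cell types. In bulk tissue, fewer cells of a type and less RNA per cell cannot be told apart. CTCF loops came from a single ChIA-PET library of sorted nuclei of hippocampal excitatory neurons (Camk2a+) from tamoxifen-treated males labelled WT. By the study's methods, nuclei were sorted from young adults that carried Camk2a-creERT2 and the nuclear reporter CAG-Sun1/sfGFP, so these mice had another genotype than the controls of the RNA libraries.

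Otopetrins form channels in the plasma membrane that conduct protons. Otop1 is needed to form otoconia, the mineral grains of the vestibular organ of the inner ear, is the channel through which type III taste cells sense sour, and is also known from brown fat. Otop2 and Otop3 are relatives of Otop1 with a similar permeation path, and Otop2 is known from epithelial cells of the gut.

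Otop1 (ENSMUSG00000051596) lies on the plus strand at chr5:38275972-38304217 (GRCm38) and overlaps no other annotated gene. Otop2 (ENSMUSG00000050201, plus strand, chr11:115307163-115332303) and Otop3 (ENSMUSG00000018862, plus strand, chr11:115334731-115346927) stand head to tail, with 2.43 kb between them. The span of Otop2 also holds Ush1g (ENSMUSG00000045288, minus strand, chr11:115315192-115322041), which encodes a scaffold protein of the hair bundle of inner ear hair cells. The exons of Otop2 and Ush1g share 0 bases. The strand setting of the counting is not given in the sources used here, so reads from unspliced Otop2 RNA over Ush1g exons could not be told from Ush1g reads.

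The start regions of the genes are shown because the loops described further on meet one of them. Each sequence holds 300 bases on the plus strand, from 250 bases before a RefSeq start to 50 bases from it (RefSeq, GRCm38.p6), and the capitals mark matches to the motifs that were searched. Otop2 has an outer start and an inner start, and the inner one lies 0.489 kb from the Ush1g start on the other strand.
Otop1, chr5:38277154-38277453: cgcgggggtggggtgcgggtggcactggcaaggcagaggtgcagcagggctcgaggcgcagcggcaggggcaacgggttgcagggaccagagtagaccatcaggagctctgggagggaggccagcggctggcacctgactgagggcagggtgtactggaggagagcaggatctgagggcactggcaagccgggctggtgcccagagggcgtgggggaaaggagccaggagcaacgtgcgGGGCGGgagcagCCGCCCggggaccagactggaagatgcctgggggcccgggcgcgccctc
Otop2 outer start, chr11:115306913-115307212: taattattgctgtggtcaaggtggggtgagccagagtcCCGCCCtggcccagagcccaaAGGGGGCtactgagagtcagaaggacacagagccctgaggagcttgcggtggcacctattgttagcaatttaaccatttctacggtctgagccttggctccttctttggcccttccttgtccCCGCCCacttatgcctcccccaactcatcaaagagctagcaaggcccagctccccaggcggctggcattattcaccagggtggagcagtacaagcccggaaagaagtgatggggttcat
Otop2 inner start, chr11:115322280-115322579: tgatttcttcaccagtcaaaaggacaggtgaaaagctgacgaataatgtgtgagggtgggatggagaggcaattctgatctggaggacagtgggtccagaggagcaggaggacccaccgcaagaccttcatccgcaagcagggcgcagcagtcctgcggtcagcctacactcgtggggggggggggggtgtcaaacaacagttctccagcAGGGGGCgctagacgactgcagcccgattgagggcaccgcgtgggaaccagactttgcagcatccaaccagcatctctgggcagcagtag
Otop3, chr11:115334481-115334780: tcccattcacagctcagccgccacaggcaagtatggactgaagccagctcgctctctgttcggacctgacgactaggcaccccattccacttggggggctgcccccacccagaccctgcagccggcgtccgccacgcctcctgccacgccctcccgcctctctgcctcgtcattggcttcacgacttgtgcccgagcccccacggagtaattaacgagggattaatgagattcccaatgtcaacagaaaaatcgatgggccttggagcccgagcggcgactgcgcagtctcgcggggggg

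The start regions differed in base composition. That of Otop1 had 71.7% G and C, above 92.6% of the 32851 promoters of the same length. The outer and the inner Otop2 start had 56.3% and 58.7%, and that of Otop3 had 63.0%, against a median of 52.7%. The observed to expected ratio of CpG was 0.52 for Otop1, 0.25 and 0.44 for the outer and inner start of Otop2, and 0.76 for Otop3, against a median of 0.38.

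Motifs were searched on both strands. The GC box GGGCGG, bound by Sp factors, was found in 2 places at Otop1 and in 2 places at the outer Otop2 start, and 35.7% of promoters held it. AGGGGGC, the inner part of a common form of the CTCF site, was found once at each Otop2 start, and 10.6% of promoters held it. At the inner start the match began 40 bases upstream of the start. AGGGGGC followed by GG would also hold the GC box, but no such overlap occurred in these regions. The start region of Otop3 held none of the letters searched. TATAAA, a core promoter element (13.6% of promoters), and the E-box letters CACGTG (7.2%) were in none of the RefSeq start regions. The same held for TTCAGCACC, the left part of the Rest element (0.4%). Coding transcripts of Otop1 and Otop2 are also annotated from chr5:38275972 and chr11:115322925, and these starts were not searched. A match is a description of letters and not evidence of binding.

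The 6 libraries held between 18985542 and 19469947 counts. Levels are given as CPM, counts scaled to library size with TMM factors. Kdm1a itself stood at 80.1 ± 0.897 CPM in the control group and at 38.2 ± 1.23 CPM in the Kdm1a-ifKO group (SD over 3 libraries), with a log2FC of -1.07 (SE 0.0559). The quasi-likelihood F test of edgeR gave it an adjusted p of 6.24e-08. The excitatory neuron markers Slc17a7, Camk2a, Neurod6, Neurod2 and Prox1 summed to between 6301 and 6985 CPM over the libraries. Over all genes, 1487 of 16799 tested passed an adjusted p-value of 0.05 (8.85%), of which 1014 were higher in Kdm1a-ifKOs (6.04%). With a log2FC over 1 in addition, 229 were higher (1.36%).

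Reads of all 3 otopetrin genes were rare in controls and present in every Kdm1a-ifKO library. Otop1 had 1, 0 and 1 reads over control replicates 1 to 3 and 82, 81 and 67 over Kdm1a-ifKO replicates 1 to 3. It was thus nearly without reads in controls, and the groups were far apart. Otop2 had 7, 4 and 16 counts in controls and 41, 47 and 48 in Kdm1a-ifKOs. It was the otopetrin with the most reads in controls, with control replicate 3 the highest of them. Otop3 had 3, 0 and 2 counts in controls and 31, 21 and 26 in Kdm1a-ifKOs. For each of the 3, every Kdm1a-ifKO library lay above every control library, which was also true of 15.7% of all tested genes, and nothing is read from this count because the genes were selected on it. All 3 passed the filter on low counts, which their Kdm1a-ifKO libraries alone could fulfil.

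**Figure D1:**
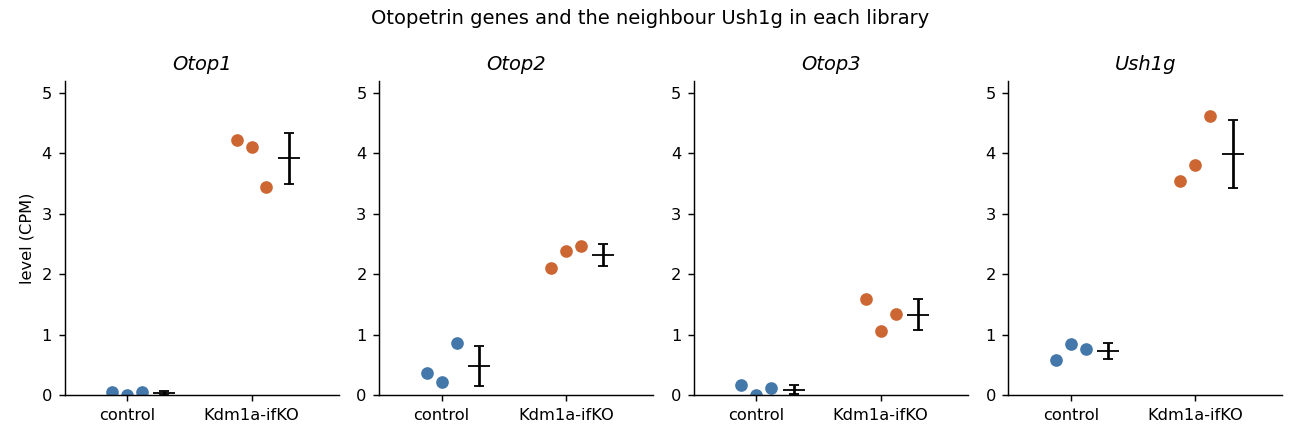
Level of Otop1, Otop2, Otop3 and the neighbouring gene Ush1g in CPM (y axis from 0) in each library, with controls in blue and Kdm1a-ifKOs in orange and the mean ± SD of 3 libraries in black beside the points. Otop1 goes from a mean of 0.0353 CPM in controls to 3.92 CPM in Kdm1a-ifKOs, and in each panel all Kdm1a-ifKO points lie above all control points.

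The mean level of Otop1 was 0.0353 ± 0.0306 CPM without and 3.92 ± 0.421 CPM with the deletion (SD, n = 3 each). The summed reads, 2 against 230, gave a ratio of 111 with an exact binomial 95% interval of 30.5 to 925. That of Otop2 was 0.479 ± 0.339 and 2.32 ± 0.187 CPM, a ratio of 4.88 (3.21 to 7.67). That of Otop3 was 0.0881 ± 0.0802 CPM and 1.33 ± 0.264 CPM, a ratio of 15.1 (6.21 to 47.8) from 5 and 78 reads. These intervals cover counting error only and not the differences between mice.

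The ratios rested on few control reads and moved with single control libraries. As the log2 ratio of mean CPM, Otop1 went from 6.79 to 6.20 without control replicate 2, which held no read of it. Otop2 went from 2.28 to 3.01 without control replicate 3. Otop3 went from 3.92 to 4.64 without control replicate 1 and to 3.33 without control replicate 2.

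Levels were compared between the genes per length of summed exons, as TPM (reads per exon length, scaled to the same total in every library). In Kdm1a-ifKOs, Otop1 was the highest at 4.55 ± 0.501 TPM, followed by Otop2 at 3.50 ± 0.291 TPM and Otop3 at 2.19 ± 0.422 TPM (SD, n = 3 each). This order held in each of the 3 libraries, and neighbours in it did not overlap over the libraries. In controls the order was another one. Otop2 was the highest in each library, at 0.718 ± 0.506 TPM, while Otop3 at 0.145 ± 0.132 TPM and Otop1 at 0.0408 ± 0.0354 TPM overlapped over the libraries. Also in Kdm1a-ifKOs the 3 genes stayed among the lower levels of the tissue. Of the tested genes, 23.1% had a lower mean TPM than Otop1 there, 19.1% a lower one than Otop2 and 12.3% a lower one than Otop3.

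The genes with the most similar profile to each otopetrin were taken by the smallest Euclidean distance of log2 CPM (prior count 1) over the 6 libraries. Such lists gather genes with the same few control reads, and the distances are a description. The nearest to Otop1 were Nags (distance 0.592), C1ql4 (1.00) and Tmem30b (1.23), against a median of 14.1 over the tested genes. Nags encodes the mitochondrial enzyme that makes N-acetylglutamate, and its exons share 443 bases with Gm11586 on the other strand. The nearest to Otop2 were 4930426D05Rik (0.903), the calpain gene Capn11 (1.12) and Abhd15 (1.13). The exons of 4930426D05Rik and Abhd15 also overlap genes on the other strand, so that their counts are uncertain. The nearest to Otop3 were Mesp1 (0.982), a transcription factor of early mesoderm, Pkp1 (1.26), a plakophilin of desmosomes, and Nxnl1 (1.47). No otopetrin was among the nearest 3 of another.

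The neighbours of the otopetrin genes were tested to see whether genes around them differed as well. Within 250 kb of an otopetrin gene 42 other genes are annotated, of which 29 were tested and 3 passed an adjusted p-value of 0.05 (10.3%, beside 8.85% of all tested genes). These were Ush1g, Slc9a3r1 and Drd5, and all 3 were higher in Kdm1a-ifKOs. Only Ush1g had a log2FC over 1. The median log2FC was 0.04 over the 29 genes and 0.00 over all tested genes.

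Ush1g had 11, 16 and 14 counts in controls and 69, 75 and 90 in Kdm1a-ifKOs. The groups did not overlap, and Kdm1a-ifKO replicate 3 was the highest. It rose from 0.723 ± 0.135 to 3.99 ± 0.560 CPM (SD, n = 3 each), with a log2FC of 2.46 (SE 0.230, adjusted p = 1.39e-05 in edgeR). This call held under all 11 alternative fits, where the adjusted p-value was at most 2.27e-04. Ush1g was the 1 tested gene placed within the span of an otopetrin gene. Since the strand setting of the counting is not given, reads of unspliced Otop2 RNA could be part of its counts. The alternative fits use the same counts and cannot separate the 2 sources.

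The genes on either side of this pair were much closer to their control levels. Fads6, a fatty acid desaturase gene that lies 9.50 kb before Otop2, had 670, 630 and 549 counts in controls and 608, 699 and 616 in Kdm1a-ifKOs (log2FC 0.01, SE 0.0794, adjusted p = 0.953 in edgeR). Hid1, on the other side, lies 0.780 kb past the end of Otop3 and encodes a protein of the Golgi and of dense core vesicles. It had 2649, 2595 and 2367 counts in controls and 2923, 2801 and 2876 in Kdm1a-ifKOs (log2FC 0.13, SE 0.0529, adjusted p = 0.147 in edgeR). Its Kdm1a-ifKO libraries lay above its control libraries, as in 15.7% of all tested genes, but the difference did not pass the threshold. Further out, Slc9a3r1, which encodes the scaffold NHERF1 of sodium-proton exchangers, rose by 0.26 on the log2 scale (SE 0.0622, adjusted p = 0.0220 in edgeR). Its counts were 801, 733 and 697 in controls and 913, 924 and 912 in Kdm1a-ifKOs. The adjusted p-value rose above 0.05 without control replicate 2 or without any 1 of the Kdm1a-ifKO libraries, and reached 0.0849. Around Otop2 and Otop3 together, 18 of 21 tested genes had a positive log2FC, with a median of 0.08 and a range of -0.33 (Slc16a5) to 2.46 (Ush1g). The median over all tested genes was -0.003, and a shift of the region as a whole was not tested.

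At Otop1, 8 neighbours were tested and 1 passed. Tmem128, a membrane protein gene that ends 6.34 kb before Otop1, had 434, 461 and 437 counts in controls and 436, 451 and 470 in Kdm1a-ifKOs (log2FC -0.02, SE 0.0710, adjusted p = 0.902 in edgeR). Its groups overlapped. Drd5, the dopamine D5 receptor gene, starts 15.2 kb past the end of Otop1 and had 232, 235 and 239 counts in controls and 337, 288 and 296 in Kdm1a-ifKOs. It rose by 0.34 on the log2 scale (SE 0.0936, adjusted p = 0.0409 in edgeR). This call was lost without any 1 of the libraries except Kdm1a-ifKO replicate 2 and in DESeq2, with an adjusted p-value of up to 0.163. The exons of Drd5 also share 1531 bases with Gm26560 on the other strand. The remaining 7 tested genes had a log2FC between -0.27 (Slc2a9) and -0.01, and none passed.

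**Figure D2:**
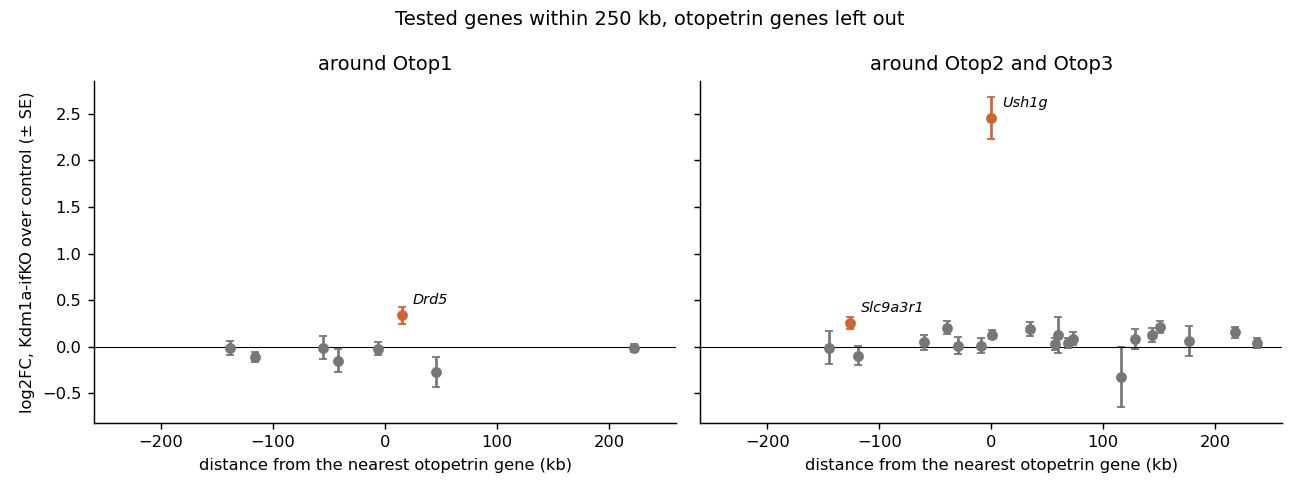
Log2FC ± SE (y axis) of the tested genes within 250 kb, with the otopetrin genes left out, against their distance from the nearest otopetrin gene in kb, for Otop1 (left) and for Otop2 and Otop3 (right). Orange points passed an adjusted p-value of 0.05, and Ush1g at a log2FC of 2.46 stands above all other neighbours, which lie between -0.33 and 0.34.

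CTCF is the architectural protein that, together with cohesin, holds the feet of many chromatin loops. A loop here is a pair of anchors joined by at least 3 paired-end tags (PETs). The loops were measured in neurons labelled WT, so they hold no comparison between the genotypes. Each otopetrin gene had 5 of the 27786 loops with an anchor within 10 kb of its body, 14 distinct loops in all, since 1 loop has a foot near Otop2 and the other near Otop3. At least 1 loop was found at 57.0% of the tested genes with coordinates, and those genes had a median of 4 loops. At least 5 loops were found at 24.6% of the tested genes.

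The strongest of these loops enclosed Otop3. It joined chr11:115321098-115324277, inside Otop2 and at the start of Ush1g, to chr11:115350020-115358450 in Hid1, with 66 PETs over a span of 31.6 kb between anchor midpoints. Of the tested genes, 6.82% had a loop as strong. The left anchor holds the inner Otop2 start printed above with its AGGGGGC match on the plus strand, and a further match on the minus strand. The right anchor held 3 matches, all on the minus strand. Otop3 lay whole between these anchors, while the outer start of Otop2 lay outside. The other 4 loops of Otop2 began in the same stretch and had 3 PETs each. They reached to Hid1 and to Mrpl58, a mitochondrial ribosome gene, with spans of 36.4 to 89.5 kb.

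The other loops of Otop3 started from Hid1, at 6.68 to 9.93 kb past the end of Otop3, and ran away from the otopetrins. The one with 12 PETs spanned 117 kb to Armc7, and those with 3 or 4 PETs ended at Mrpl58, Armc7 and Nt5c. Only the loop with 66 PETs had an anchor within 5 kb of Otop3.

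**Figure D3:**
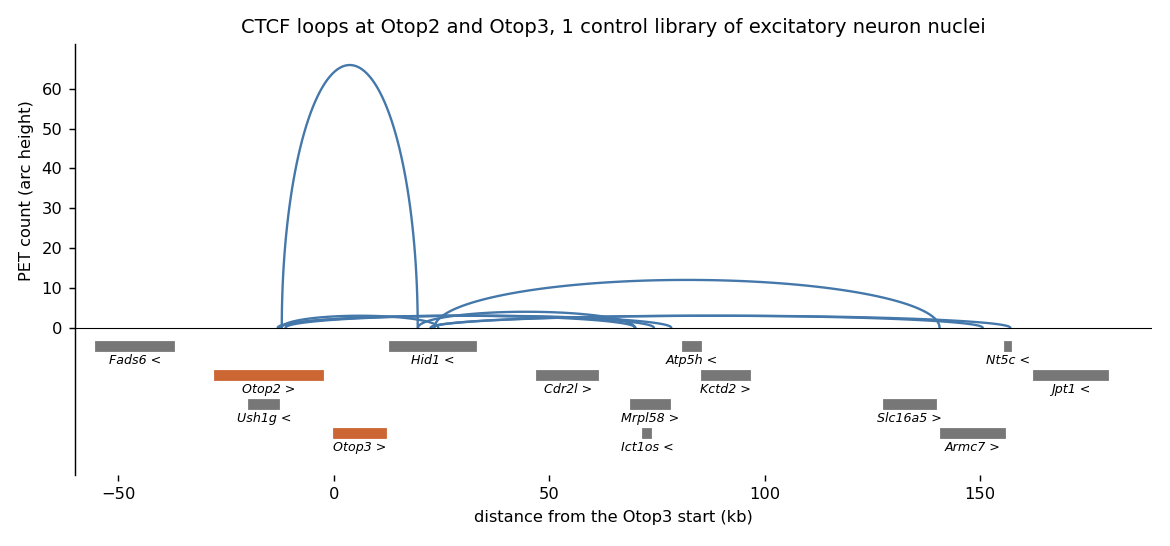
CTCF loops with an anchor within 10 kb of Otop2 or Otop3, drawn as arcs between anchor midpoints whose height is the PET count (y axis), against the distance from the Otop3 start in kb. Bars below are genes with their direction (otopetrins in orange), and the arc of 66 PETs rises from the inner start of Otop2 over Otop3 to Hid1, above all other arcs, which have 3 to 12 PETs.

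At Otop1 all 5 loops began behind the gene and ran away from it. Their near anchors lay 0.287 to 4.10 kb past the end of Otop1, between 38304504 and 38310525 on chromosome 5. The strongest, with 47 PETs, spanned 210 kb to an anchor between Slc2a9 and Wdr1. The next, with 37 PETs, spanned 161 kb to an anchor in Slc2a9, a urate transporter gene. The others had 7, 5 and 4 PETs and spans of 224 to 324 kb. No loop in the library held Otop1 whole. Of the loops that span at most 2 Mb, 1 held Otop2 and 6 held Otop3, and with longer contacts included these were 7 and 12. Drd5 lay between the anchors of all 5 Otop1 loops. The gene body of Otop1 itself touched no anchor, nor did that of Otop3.

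The anchors of the Otop1 loop with 37 PETs are shown by their AGGGGGC matches (capitals, 43 bases, GRCm38.p6), since the matches printed point towards each other. The near anchor has 1 match on the plus strand and 1 on the minus strand, and both matches of the far anchor are on the minus strand, which is the strand printed for it.
Near anchor, chr5:38307688-38307730, plus strand: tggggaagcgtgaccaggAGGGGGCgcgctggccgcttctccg
Far anchor, chr5:38470038-38470080, minus strand: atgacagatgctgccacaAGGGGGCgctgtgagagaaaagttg
Far anchor, chr5:38470233-38470275, minus strand: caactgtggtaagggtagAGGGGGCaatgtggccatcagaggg

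The far anchor of the loop with 47 PETs held 3 matches, all on the plus strand. For comparison, 23.1% of all 55480 distinct anchors held a match in the 1 kb around their centre, a window shorter than the anchors of these strong loops.

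**Figure D4:**
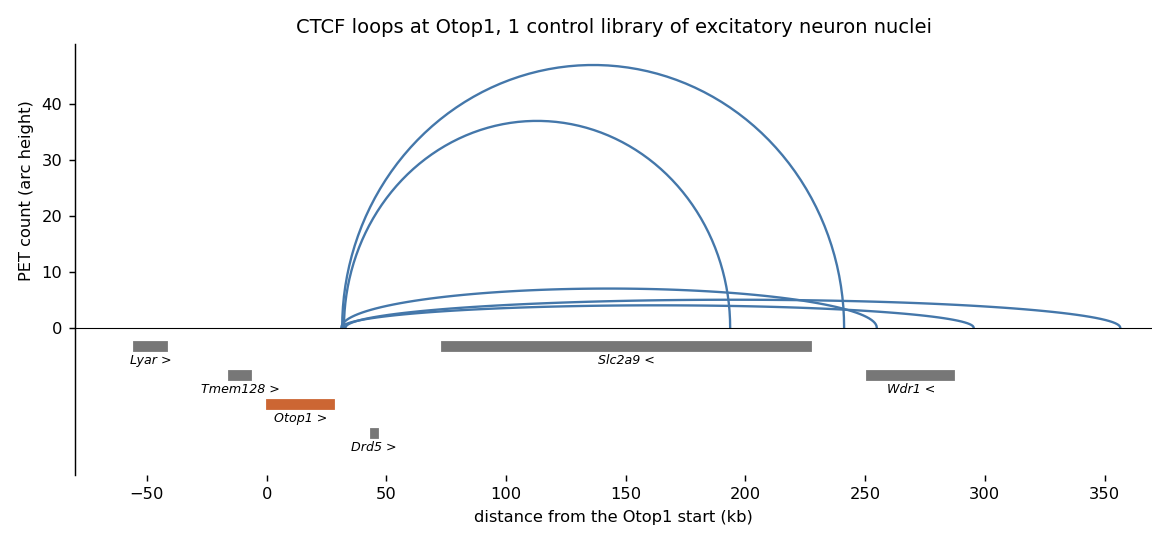
CTCF loops with an anchor within 10 kb of Otop1, drawn as arcs between anchor midpoints whose height is the PET count (y axis), against the distance from the Otop1 start in kb, with gene bars below (Otop1 in orange). All 5 arcs, with 4 to 47 PETs, start just past the end of Otop1 and pass over Drd5 without enclosing Otop1.

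Genes at the far ends of the loops were tested as well. Within 10 kb of a far anchor lay 16 other genes, of which 13 were tested and 1 passed (8.85% of all tested genes passed). The gene that passed was Ush1g, which is at the left foot of the 66 PET loop as seen from Otop3. It is also the neighbour described above, with the same limit on its reads. The 12 other tested genes had a log2FC between -0.33 and 0.21. Wdr1, an actin regulator at the far side of the Otop1 loops, had mean levels of 222 and 220 CPM without and with the deletion, and a log2FC of -0.01 (SE 0.0478, adjusted p = 0.900 in edgeR). Jpt1 had the largest log2FC of the 12 in the upward direction, 0.21 (SE 0.0640, adjusted p = 0.0611 in edgeR), and passed 0.05 without control replicate 1 and under 2 other settings.

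Since otopetrins move protons, the other genes of acid handling were counted in the same fit. The lists held 81 genes besides the otopetrins, of which 63 were tested and 9 passed (14.3%, beside 8.85% of all tested genes), 8 higher and 1 lower in Kdm1a-ifKOs. The median log2FC of the 63 was 0.00, and 32 were positive. The carbonic anhydrases, which interconvert carbon dioxide and bicarbonate, had the most, with 4 of 12 tested genes higher and none lower. Car4, bound to the plasma membrane and also used by taste cells, went from 51.7 ± 3.30 to 82.8 ± 8.97 CPM (SD, n = 3 each). Its log2FC was 0.68 (SE 0.0802, adjusted p = 2.21e-04 in edgeR). Car12, likewise at the membrane, rose by 0.40 on the log2 scale (adjusted p = 0.00364 in edgeR). Car10, which lacks the enzyme activity, and the cytosolic Car2 rose by 0.27 and 0.21.

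Of the proton pumps, 22 were tested and 3 rose. These were Tcirg1, the a3 subunit of the vacuolar ATPase used by osteoclasts (log2FC 0.54, adjusted p = 0.00238 in edgeR), Atp6v1c2, an epithelial subunit (1.04, adjusted p = 0.00959), and Atp4a, the gastric proton pump (1.05, adjusted p = 0.0206). The last had only 16, 22 and 15 counts in controls and 44, 34 and 36 in Kdm1a-ifKOs, while its partner subunit Atp4b had no read in any library. The 19 other pump genes did not pass, and the median log2FC of the 22 was -0.03, with 8 positive. At an unadjusted p under 0.05 in edgeR there were 9, and those besides the 3 named were all lower in Kdm1a-ifKOs. The summed level of the 28 listed pump genes was 5186 to 5264 CPM in controls and 4932 to 5070 CPM in Kdm1a-ifKOs.

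Among the listed proton and acid-gated channels and their family members, 1 of 11 tested genes rose. This was Asic4 (log2FC 0.54, adjusted p = 0.0175 in edgeR), listed as a member of the acid-sensing channel family. Whether Asic4 itself responds to acid is not shown by these data. Its exons share 493 bases with Gm37264 on the other strand. Of 9 sodium-proton exchangers described here 0 passed in edgeR and 0 in DESeq2, with 3 at an unadjusted p under 0.05. Of the bicarbonate transporters, 1 of 7 fell, Slc4a10, the neuronal sodium-driven exchanger (log2FC -0.39, adjusted p = 0.0400 in edgeR). Of the proton-sensing receptors 0 of 2 passed in edgeR and 0 in DESeq2, with 1 at an unadjusted p under 0.05. Of the 9 calls, those of Car4, Car12, Tcirg1 and Atp6v1c2 held with each library left out. The calls of Asic4, Atp4a, Car10, Car2 and Slc4a10 were all lost without Kdm1a-ifKO replicate 3, and all of these except that of Asic4 were also lost without at least 1 other library. In DESeq2 8 acid-handling genes passed, and the adjusted p-value of Atp4a was 0.0775. Without that replicate 4 acid-handling genes passed, and without Kdm1a-ifKO replicate 1 it was 6.

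**Figure D5:**
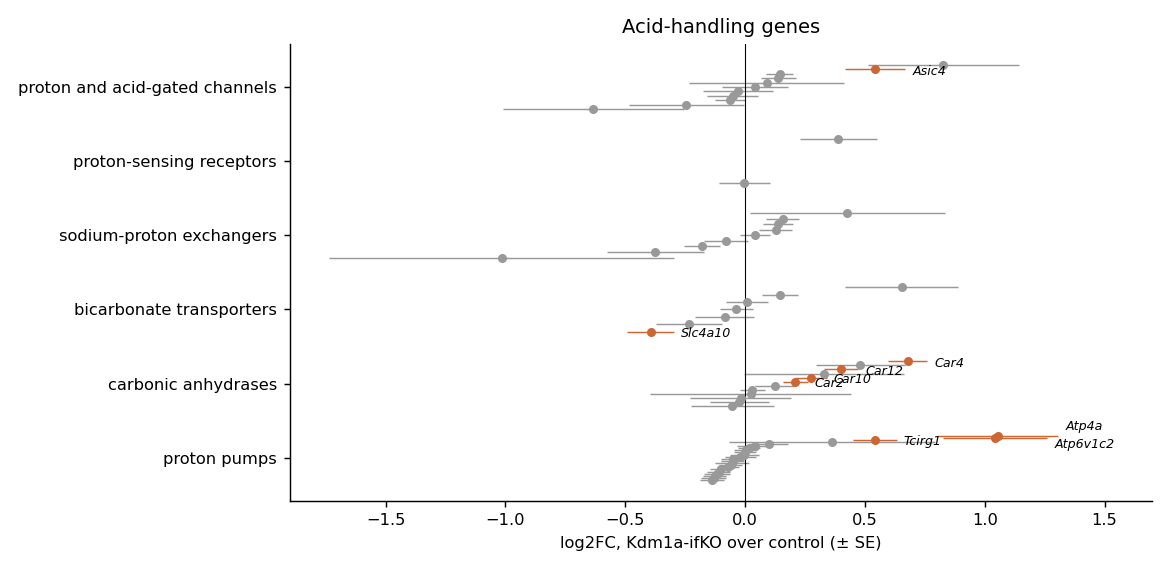
Log2FC ± SE (x axis) of the tested genes of the 6 acid-handling lists, with each list as a row and its genes ordered by log2FC within it. Orange points passed an adjusted p-value of 0.05, namely 4 carbonic anhydrases, 3 proton pumps and Asic4 on the right of the zero line and Slc4a10 on the left.

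Genes of the tissues in which otopetrins are best known were counted in the same way, beside the share of 8.85% over all tested genes. Nothing is read from a single call in lists of 4 to 9 tested genes. Of the otoconia genes 9 of 15 were tested and 0 passed in edgeR and 0 in DESeq2 (5 at an unadjusted p under 0.05), and Otol1, the collagen-like otoconial scaffold, had no read. Of the taste cell genes 8 of 11 were tested and 1 passed, Car4 again, and the taste G protein gene Gnat3 had no read. Of the brown fat genes 5 of 7 were tested and 1 passed, Cidea, a lipid droplet protein (log2FC 0.73, adjusted p = 0.00968 in edgeR), while Ucp1, the uncoupling protein of brown fat, had 4, 1 and 0 counts in controls and none in Kdm1a-ifKOs. Of the gut epithelium genes 4 of 8 were tested and 0 passed in edgeR and 0 in DESeq2 (0 at an unadjusted p under 0.05), with no read of Cdx2 and Guca2a.

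Some markers of brain cell types also differed between the genotypes. The lists are short, and 8.85% of all tested genes passed. The summed level of the 5 microglia markers was 227 to 249 CPM in controls and 262 to 323 CPM in Kdm1a-ifKOs. Csf1r, Cx3cr1 and Tmem119 of them rose, and all 5 had a positive log2FC and an unadjusted p under 0.05 in edgeR. The 5 astrocyte markers summed to 1587 to 1715 CPM in controls and 1864 to 2044 CPM in Kdm1a-ifKOs (Slc1a3 rose). For the 4 thalamus markers these sums were 97.6 to 103 and 113 to 133 CPM (Prkcd rose). Of the 4 thalamus markers 3 had a positive log2FC, and Rora had one of -0.30 that did not pass. The 5 choroid plexus markers summed to 35.7 to 60.1 CPM in controls and 64.7 to 71.2 CPM in Kdm1a-ifKOs. Among them Kl rose from a mean of 24.4 to 59.0 CPM. Ttr (log2FC -1.49, adjusted p = 0.337 in edgeR) and Clic6 (-0.85, adjusted p = 0.202) were lower without passing. Of the 4 tested genes 2 had a positive log2FC, and the median was -0.37, so the higher sum is that of Kl and not of the list. Of 5 excitatory neuron markers Neurod6 fell, and of 6 interneuron markers Vip fell. The calls of Csf1r, Cx3cr1, Tmem119, Slc1a3 and Vip were each lost without Kdm1a-ifKO replicate 3 and without at least 1 other library. Of the 5 oligodendrocyte, 4 endothelial and 4 ependyma markers 0 passed in edgeR and in DESeq2, and 0 had an unadjusted p under 0.05. The part of these changes in the levels of the otopetrins and acid-handling genes was not tested.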

How the data were processed

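Poly-A RNA of 6 hippocampi was sequenced single-end. The authors trimmed the reads with cutadapt 1.18, aligned them to GRCm38 (mm10) with HISAT2 2.1.0 and ran HTSeq 0.11.1 on Ensembl genes, and deposited the raw counts. They made the loops with ChIA-PIPE and deposited PET counts (at least 3, with a CTCF peak at both anchors). The sequencing depth behind the loops is not given in the sources used here, and a single loop library allows no test.

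Here, the genotypes were compared by the quasi-likelihood F test of edgeR 4.0.16 under R 4.3.3, after filterByExpr and TMM scaling and without covariates. P-values were adjusted by Benjamini-Hochberg over every gene tested. The test was checked on simulated data. The p-values weigh the difference between the genotypes against the spread between these mice, with 3 mice per group. Coordinates came from GENCODE M21 by Ensembl identifier (48349 genes matched), and sequences from RefSeq (GRCm38.p6, 5 promoter entries for the 3 genes). Intervals are exact binomial at 95%.

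The otopetrins and all gene lists were chosen with earlier results of these data known. From the lists, 2 genes are not reported here and stand in no list count. Named were the 3 genes, Kdm1a, neighbours within 250 kb and genes at far anchors with an adjusted p-value under 0.05, the nearest protein-coding neighbours, list members under 0.05 and the 3 most similar profiles. Jpt1, Wdr1, Slc2a9, Slc16a5, Ttr, Clic6, Rora and the list genes without reads were named after their values were seen. Alternatives were DESeq2 1.42.0, other scalings, no filter, a replicate block, each library left out and other windows.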

Additional observations from a re-analysis of the deposited data

How the results depend on the processing

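Without a filter on low counts 2537 genes passed, against 1487. Of the genes within 250 kb, 5 passed without the filter and 1 with the replicate block, in place of 3. Of the genes at far anchors, 2 passed with upper-quartile scaling or without the filter in place of 1. With 0 kb at both ends of a loop the count was 0, by construction, since no loop of Otop3 was then left. The log2 difference of Otop1 was 4.87 with a prior count of 2 and 6.17 with 0.5, against a log2 ratio of 6.79, and that of Otop3 was 2.99 with a prior count of 2, against 3.92, by construction of the prior. At 0 kb Otop1 and Otop3 had 0 loops, Otop3 had 1 at 5 kb and 13 at 20 kb, and with at least 5 PETs Otop2 had 1 and Otop3 had 2.

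With 1 library left out, 783 to 1460 genes passed, and the lowest count came without Kdm1a-ifKO replicate 3 (899 without Kdm1a-ifKO replicate 1). The log2 ratio was 6.20 to 7.23 for Otop1, 1.92 to 3.01 for Otop2 and 3.33 to 4.64 for Otop3. The neighbours that passed were 1 to 3, the acid-handling genes 4 to 8 and the genes at far anchors 1 to 2. The causes were not tested.

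For a check of pairing, the mean of each group was subtracted from the log2 CPM of each gene. What remained correlated at -0.148 to -0.0326 between same-numbered libraries of the groups. No library correlated best with its own number, so the numbers were not taken as pairs. The replicate block left 1046 genes passing and the log2FC of Kdm1a at -1.07. With it the adjusted p-values in edgeR were 0.0811 for Drd5, 0.0508 for Slc9a3r1, 0.0617 for Car2 and 0.0965 for Slc4a10. Of the 21 genes that passed in the lists or near the loci, 9 kept their call in all alternatives and none changed sign. Depth limits the ratios of Otop1 and Otop3, which rest on 2 and 5 control reads.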
